A study of Mus musculus with 30 samples.

Results

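CD49a+ natural killer (NK) cells from skin grafts of the F1 model were compared with CD49b+ NK cells from the spleen of the same model. The comparison took 6 of the 30 libraries of the series, 3 per group, and every gene with a normalized value of 10 or more in at least 3 of the 30 libraries, which were 16045 of 30587 genes. The graft group held CD49a+ NKp46-GFP+ cells sorted at day 10 from m157tg B2m+/- donor skin, and the spleen group held CD49b+ NKp46-GFP+ cells. Recipients in both groups were C57BL/6xBalb/c mice of genotype NKp46+/iCre.Rosa+/mTmG, so all 6 libraries came from mice in which a Cre at the NKp46 locus switches on membrane GFP in cells that have used that locus. The B6 model, used here as another instance of the contrast, had C57BL/6 NKp46iCre/iCre.RosamTmG/mTmG recipients, m157tg B2m-/- skin and a sort at day 20. Whether equally numbered libraries share a mouse, or pool several, is not in the labels, so p-values measure a spread between libraries. Each gene's spread was estimated within groups over all 30 libraries in 10 groups, and not from these 6 libraries alone. Tissue and sort marker change together between the groups and cannot be told apart within this contrast.

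NK cells are innate lymphocytes that kill target cells with perforin and granzymes and read their targets through activating and inhibitory receptors. CD49b marks most circulating NK cells, whereas CD49a, a collagen-binding integrin, marks NK cells and related innate lymphoid cells that stay in tissues. Cells leave tissue along gradients of sphingosine-1-phosphate, and residency goes with low levels of its receptors. m157 is a cytomegalovirus protein that the activating receptor Ly49H recognises in C57BL/6 mice, and B2m is needed to display MHC class I, the ligand of most inhibitory Ly49 receptors.

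Levels of the sort marker genes lay in the direction of their labels, which is a check and not a finding. Itga1, the CD49a gene, had 44, 22.1 and 55.5 in the graft libraries, against 7.88, 6.03 and 6.27 in the spleen libraries, and Itga2, the CD49b gene, had 6.66, 6.27 and 5.46 in the graft libraries, against 34.1, 44.8 and 40.9 in the spleen libraries. Ncr1, the NKp46 gene, was found in every library but was lower in the graft, with 81, 35.4 and 41.8 in the graft libraries, against 879, 868 and 864 in the spleen libraries. The summed value of 13 NK cell markers was 9546, 1688 and 3369 in the graft libraries, against 14995, 16594 and 16323 in the spleen libraries. The mean log2 level of 20 pan-leukocyte genes was 7.53, 6.89 and 6.60 in the graft, against 8.81, 8.91 and 8.90 in spleen. Values of these bulk libraries cannot separate fewer NK cells in the sorted material from less RNA per NK cell.

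Graft library 2 stood apart from the others in its transcripts of other cells. Erythroid and platelet markers summed to 577, 42884 and 206 in graft libraries 1, 2 and 3, against 102, 98.9 and 139.6 in spleen. Neutrophil markers summed to 1537, 13999.7 and 546 in the graft, against 17.9, 18.9 and 14.4 in spleen. Most named results that rest on library 2 are therefore given also without it. The deposited values summed to 1546906 to 2521457 per graft library, against 4265487 to 5717946 per spleen library, and 14 repetitive predicted genes held 35.6 to 63.3 percent of the graft sums and 82.7 to 83.5 percent of the spleen sums. Outside those genes the sums were 908714 to 1053141 in the graft and 737556 to 946283 in spleen. Correlations between replicate libraries were 0.633 to 0.68 in the graft and 0.813 to 0.864 in spleen, so graft values carry more error.

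**Figure D1:**
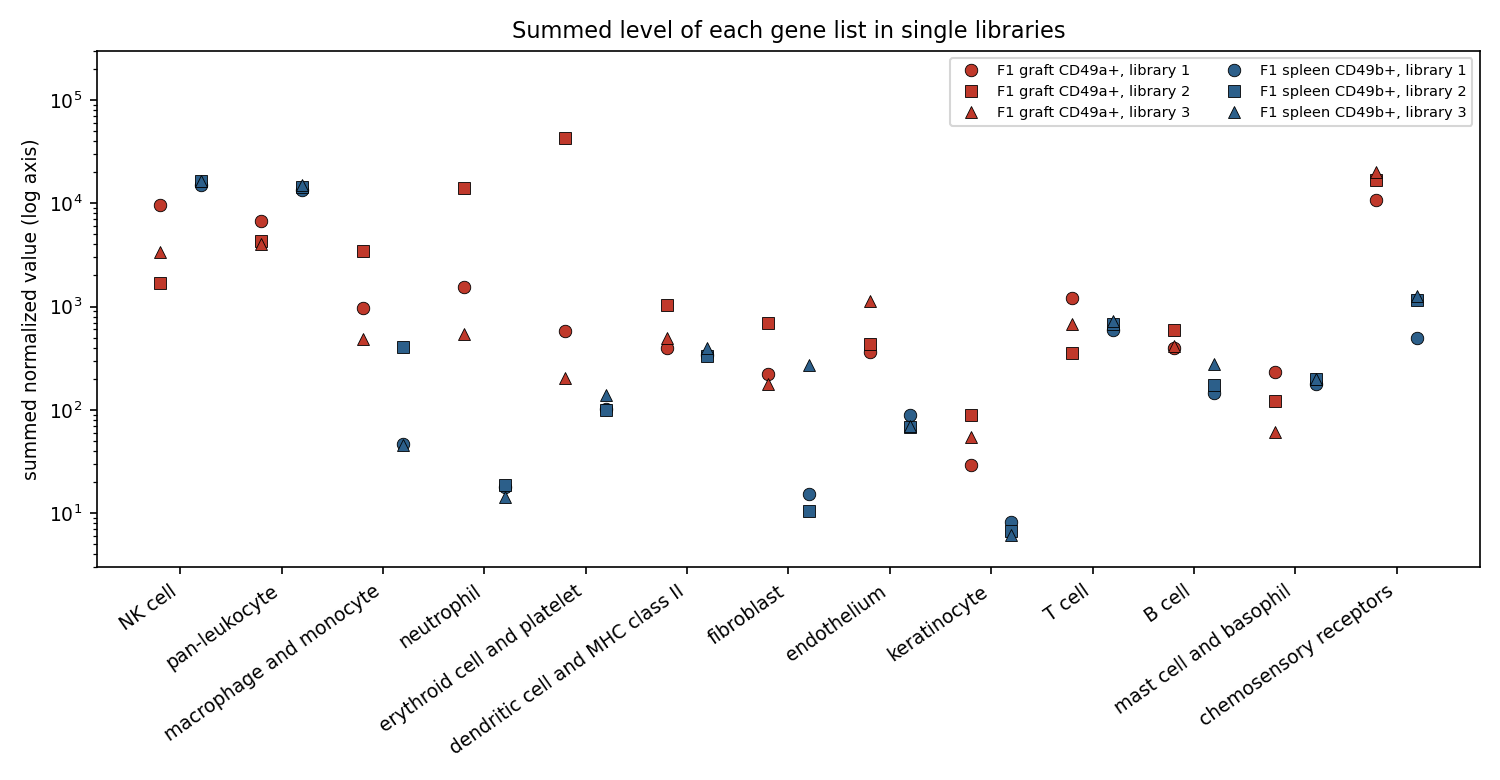
Summed normalized value (log axis) of each marker list and of chemosensory receptor genes in the 3 F1 graft CD49a+ libraries (red, left of each pair) and the 3 F1 spleen CD49b+ libraries (blue), with 1 symbol per library number. NK cell and pan-leukocyte sums lie lower in every graft library, graft library 2 has the highest erythroid, neutrophil and macrophage sums, and chemosensory receptor sums lie at 10788 to 20192 in the graft, against 495 to 1278 in spleen.

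In F1 graft CD49a+ cells 2967 genes were higher and 670 lower than in F1 spleen CD49b+ cells by limma on log2(value + 1), with Benjamini-Hochberg adjustment and a threshold of 0.05. These are 18.5 percent and 4.18 percent of the genes tested, 22.7 percent together, and are the background for every list below. The median log2 change of all genes was 0.39. Genes that were higher were mostly scarce in spleen: 84.0 percent had a spleen mean under 10, against 44.0 percent of all genes tested. Of the rises, 472 were listed at 0 in all 3 spleen libraries, 15.9 percent against 7.49 percent of all genes tested. Such genes cannot fall and entered the test only through values in other libraries, so their direction was set in advance. This bears on the balance of rises and falls and on each gene below listed at 0 in spleen. Genes that were lower were mostly well expressed in spleen, where 69.6 percent had a mean of 50 or more.

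The balance of directions depended on the scale. When each library was centred on the 20 pan-leukocyte genes (the leukocyte scale below), the median change became 2.25, and 6589 genes (41.1 percent) were higher and 26 (0.162 percent) lower, so that 99.6 percent of calls were rises against 81.6 percent on the deposited scale. With quantile normalization the median was -0.19 and 62.8 percent of 1954 calls were rises. All 2967 rises also passed on the leukocyte scale, whereas 26 of the 670 falls did. The scale takes 1 value per library from all genes, which moved every change in this contrast upward by the same amount. That rises passed and most falls did not was therefore largely set in advance. Without graft library 2, 2058 genes (12.8 percent) were higher and 490 (3.05 percent) lower, and 1958 of the rises and 384 of the falls were called again. Leaving out graft library 3, spleen library 1 or spleen library 3 cut the 3637 calls to 1811, 2250 and 2356.

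Of the 119 genes named below as called, 48 were called under each of the 17 alternatives in which they were tested, and the other 71 missed the threshold under 1 or more. The 13 falls among the 48 were those of S1pr5, Ccl5, Tbx21, Klrb1c, Klra8, Klra3, Klrk1, Klrg1, Ncr1, Foxp3, As3mt, Ifitm10 and D8Ertd82e. The 35 rises among them include Gzmc, Gzmd, Gzme, Gzmf, Tigit, Pdcd1, Cd274, Cish, Litaf, Ahr, Il2ra, Ccr7, Tgfbr1 and Ltbp1. As the leukocyte scale moved every change upward, it was an alternative that bore on falls and hardly on rises. Among the 71 were the sort markers: Itga1 missed the threshold under 9 alternatives, and Itga2 on the leukocyte scale (log2 change -0.66, adjusted p = 0.524). Blood CD49b+ NK cells of the F1 model in place of spleen ended 22 of the 119 calls. Of these, the change against blood was small for Csf2rb (0.79, adjusted p = 0.745), Sik1 (1.03, adjusted p = 0.383) and H2-T3 (1.27, adjusted p = 0.629) among rises, and for Ccdc116 (-1.02, adjusted p = 0.605), Ccnb2 (-0.31, adjusted p = 0.843), Hmgb2 (-0.55, adjusted p = 0.476) and Lef1 (-0.02, adjusted p = 0.99) among falls, all as log2 changes. The blood libraries differed widely for these rises, with 3.37, 2.63 and 138 for Sik1, 802, 0.375 and 524 for H2-T3 and 3.62, 5772 and 3.87 for Csf2rb.

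**Figure D2:**
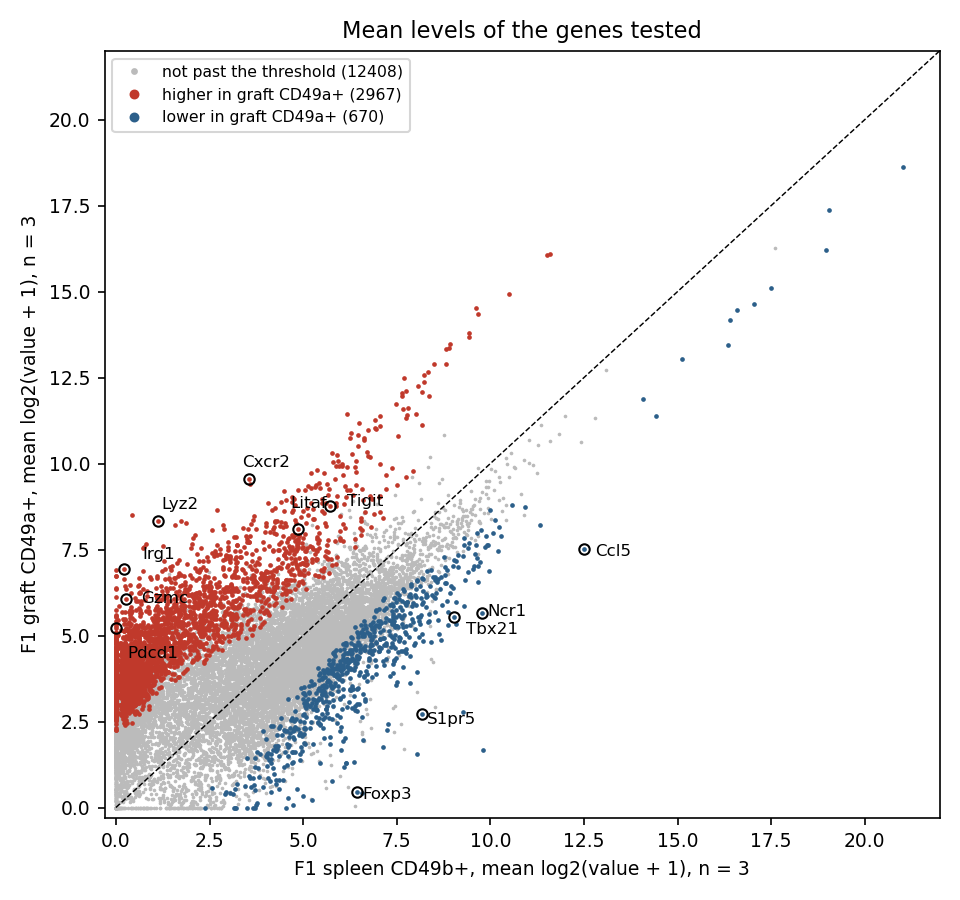
Mean log2(value + 1) of each of the 16045 genes in F1 graft CD49a+ libraries (vertical axis) and F1 spleen CD49b+ libraries (horizontal axis), n = 3 each. Red marks the 2967 higher and blue the 670 lower genes, the dashed line marks equal levels, and named genes are circled.

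The largest rises that met the naming rule (libraries of the groups apart, and a mean of 50 or more where the gene was higher) joined myeloid and inflammatory genes with genes of other kinds. Spsb1, an adaptor of a ubiquitin ligase, had 86.8, 101 and 63.2 in the graft libraries, against 0, 0 and 0 in the spleen libraries (adjusted p = 2.02e-05), the smallest p of the 10. Il1b, an inflammatory cytokine, had 355, 90.03 and 51.6 in the graft libraries and was listed at 0 in spleen (adjusted p = 0.00195). Irg1, now called Acod1, which makes itaconate in activated myeloid cells, had 427, 90.2 and 46.3 in the graft libraries, against 0.553, 0 and 0 in the spleen libraries, a rise of 106-fold (log2 change 6.73 ± 1.01, adjusted p = 0.000141). Lyz2, the lysozyme of macrophages and neutrophils, had 179.5, 2109.8 and 87.5 in the graft libraries, against 3.27, 0 and 1.41 in the spleen libraries, and S100a9, a neutrophil calcium-binding protein, had 32.5, 4925 and 6.26 in the graft and 0 in spleen. Library 2 supplied most of the graft signal of Lyz2 and S100a9, and Lyz2 missed the threshold without it (adjusted p = 0.0822). S100a9 was called when any 1 library was left out (adjusted p = 0.00176 to 0.0369). With the spread taken from the 6 libraries alone it was not called (adjusted p = 0.0601). Outside the myeloid genes, H2-T3, a nonclassical MHC class I gene, had 665, 114 and 106 in the graft libraries, against 0.349, 0.907 and 1.02 in the spleen libraries, and Mkx, a homeobox gene known from tendon, had 36.3, 154 and 1125 in the graft libraries, against 0.605, 0.611 and 0.758 in the spleen libraries. Cd22, a B cell lectin, had 280.2, 402 and 286 in the graft libraries, against 4.43, 1.98 and 1.35 in the spleen libraries, while the B cell gene Cd79a had 5.10, 0 and 3.44 in the same graft libraries. Fam81a and Lrp5, a Wnt co-receptor, complete the 10, with graft values of 345, 448 and 168 for Fam81a and 319.9, 191 and 486 for Lrp5.

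Chemosensory receptor genes, best known from the nose and the tongue, were often higher, a pattern chosen after the values were seen. Of 1636 olfactory, vomeronasal, trace amine and taste receptor genes, 576 passed the filter, and 314 of these were higher and 0 lower, or 54.5 percent against the 18.5 percent of all genes. The filter favours genes that are high in some skin library, so these counts do not describe the whole class. Olfr613 had 2411, 3771 and 4242 in the graft libraries, against 111, 225 and 228 in spleen, and Vmn1r58 had 1887, 2998 and 3434 in the graft, against 88.8, 181 and 141 in spleen. The 50 most abundant higher genes, 26 of them with predicted names, rose by a median of 4.28 on the log2 scale. Apart from the repetitive genes among them, they held 17.2, 21.4 and 25.9 percent of the signal outside repetitive genes in graft libraries 1 to 3, against 1.13, 1.66 and 1.23 percent in spleen. The part of this signal in other rises was not tested.

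Rises on the function lists described below peaked most often in graft library 1, and rises as a whole in library 3. Of all 2967 rises, 11 percent were highest in graft library 1, 30.3 percent in library 2 and 58.7 percent in library 3, and the 314 chemosensory rises split 33, 130 and 151. Among the 50 rises on the function lists, 29 were highest in library 1, 9 in library 2 and 12 in library 3. All 8 rises on the inhibitory receptor list and all 4 on the cytotoxic list were highest in library 1, where NK cell markers summed highest and chemosensory receptors lowest. This split is a description made after the values were seen, and genes are not independent of each other.

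Among the largest falls, those of S1pr5 and Ccl5 concerned genes at high and even levels in spleen. Ccl5, a chemokine stored by mature NK cells (GRCm38 chromosome 11, 83525778 to 83530518), had 279.8, 106 and 206 in the graft libraries, against 5292, 6659.5 and 5468 in the spleen libraries, a fall of 31.4-fold (log2 change -4.97 ± 0.78, adjusted p = 0.000192). On the leukocyte scale it was still called lower (adjusted p = 0.000137). As3mt, an arsenic methyltransferase, had 4.0, 2.11 and 0 in the graft libraries, against 94.5, 74.1 and 77.5 in the spleen libraries, and the Ly49 receptor gene Klra9 had 14, 9.08 and 0 in the graft libraries, against 142, 167 and 147 in the spleen libraries. Spleen values of D8Ertd82e, Ifitm10, Foxp3, St6galnac5 and Rbpjl varied widely between spleen libraries. Ifitm10, an interferon-induced transmembrane protein gene, had 5.55, 5.52 and 6.70 in the graft libraries, against 124, 1030.2 and 1841 in the spleen libraries, and Foxp3, the regulator of regulatory T cells, had 0, 0 and 1.52 in the graft libraries, against 42.9, 79.1 and 183 in the spleen libraries. D8Ertd82e had 5.95, 2.64 and 0 in the graft libraries, against 52.8, 294 and 1179 in the spleen libraries, St6galnac5, a sialyltransferase gene, had 1.53, 1.66 and 4.66 in the graft libraries, against 58.1, 143 and 329.6 in the spleen libraries, and Rbpjl, a transcription factor gene, had 1.08, 0.829 and 27.4 in the graft libraries, against 122, 87.1 and 317 in the spleen libraries. Spleen library 3 was highest in all 5. The last of the 10, Ccdc116, had 0.798, 1.23 and 1.85 in the graft libraries, against 71.2, 87.4 and 49.7 in the spleen libraries, and was not called on the leukocyte scale (adjusted p = 0.0977) or against blood. The falls of St6galnac5 and Rbpjl were also lost on the leukocyte scale (adjusted p = 0.145 and 0.0915), and single libraries decided them (adjusted p = 0.0489 to 0.111 for St6galnac5 and 0.0228 to 0.0975 for Rbpjl when 1 library was left out). St6galnac5 was also not called against blood (log2 change -1.8, adjusted p = 0.486) or with library weights (adjusted p = 0.122). Klra9 missed the threshold without graft library 3 (adjusted p = 0.0615).

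The list of egress and recirculation held 14 genes, of which 5 were lower, 1 was higher and 8 did not pass in graft CD49a+ cells, against 4.18 and 18.5 percent of all genes, with a median log2 change of -1.85 beside -2.02 for the pan-leukocyte genes. S1pr5, the sphingosine-1-phosphate receptor through which NK cells leave tissue (GRCm38 chromosome 9, 21242912 to 21248443), had 2.17, 8.59 and 8.48 in the graft libraries, against 305, 299.7 and 256 in the spleen libraries. Every graft library was under 10 and every spleen library over 250, a fall of 43.4-fold (log2 change -5.44 ± 0.95, adjusted p = 0.000421). S1pr4, a related receptor, fell 3.70-fold (log2 change -1.89 ± 0.43, adjusted p = 0.00314) with 72.4, 46.7 and 97.1 in the graft libraries, against 258, 268 and 248 in the spleen libraries. The receptor S1pr1 had 5.21, 6.07 and 3.02 in the graft libraries, against 43.4, 41.5 and 38.4 in the spleen libraries and missed the threshold (adjusted p = 0.0634). S1pr1 was called lower with the 6 libraries alone, library weights, quantile normalization, the same total or a pseudocount of 10 (adjusted p = 0.00651 to 0.0462). Leaving out any 1 library gave no call for it (adjusted p = 0.0907 to 0.176). Klf2, the transcription factor that drives S1pr1 in T cells, had 3.55, 7.66 and 3.11 in the graft libraries, against 49.3, 31.2 and 45.6 in the spleen libraries, a fall of 7.75-fold (log2 change -2.95 ± 0.75, adjusted p = 0.00702). Cx3cr1, the fractalkine receptor of mature circulating NK cells, fell 7.04-fold (log2 change -2.82 ± 0.67, adjusted p = 0.00464) with 4.35, 23.9 and 19.5 in the graft libraries, against 109, 108 and 78 in the spleen libraries. For these genes no graft library reached the lowest spleen library. Samd3 also fell, 8.68-fold (adjusted p = 0.00263).

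Ccr7, the receptor for lymph node chemokines, was the member that rose, 19.6-fold (log2 change 4.29 ± 0.90, adjusted p = 0.00177), with 87.6, 19.8 and 26.5 in the graft libraries, against 5.73, 0 and 0 in the spleen libraries. On the leukocyte scale S1pr5 remained lower (log2 change -3.58, adjusted p = 0.0246). Klf2, Cx3cr1, S1pr4 and Samd3 did not pass there, with changes between -1.25 for Samd3 and -0.02 for S1pr4, and the list median was 0.01 beside 2.25 for all genes.

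**Figure D3:**
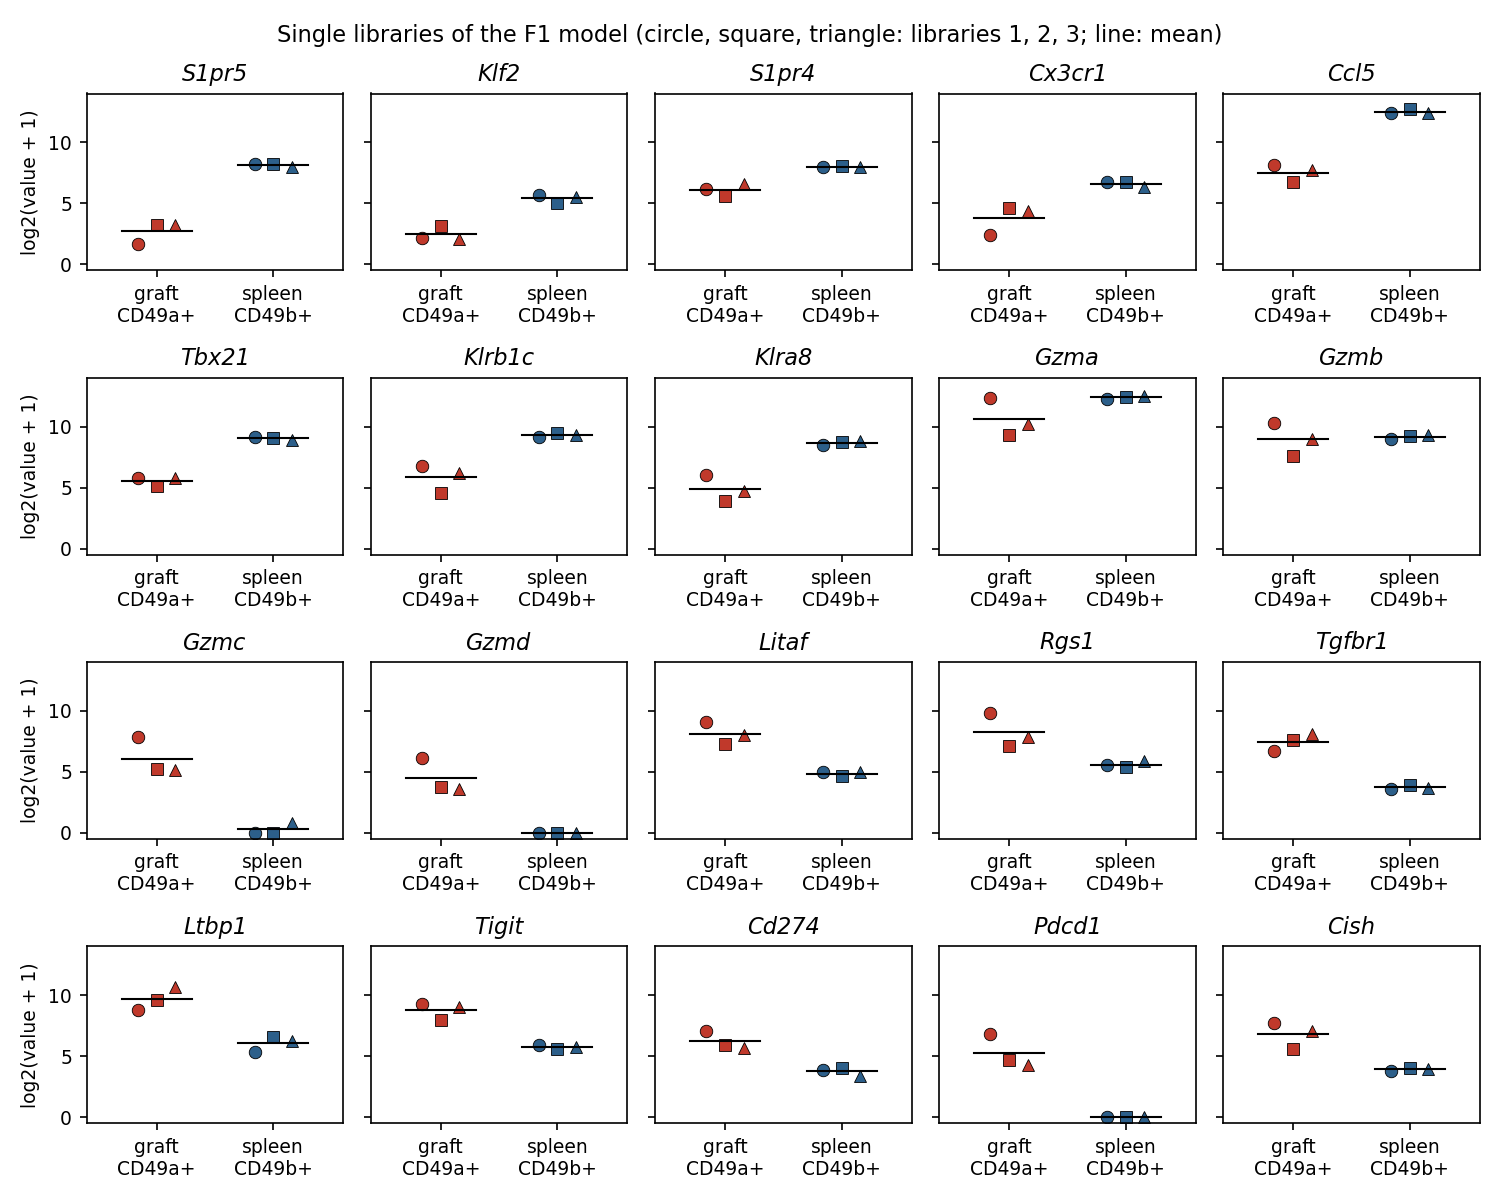
log2(value + 1) of 20 genes in single F1 graft CD49a+ libraries (red, left) and F1 spleen CD49b+ libraries (blue, right), where circle, square and triangle stand for libraries 1, 2 and 3 and the line for the mean. S1pr5, Klf2, S1pr4, Cx3cr1, Ccl5, Tbx21, Klrb1c and Klra8 are lower in each graft library than in each spleen library, Gzma and Gzmb overlap between the groups, and the remaining 10 genes are higher in each graft library.

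Of 25 tissue residency genes 22 were tested, and 6 rose, 2 fell and 14 did not pass, with a median of 1.15. Litaf, a regulator of endosomal traffic, had 532, 154 and 251 in the graft libraries, against 30.4, 23.5 and 30.7 in the spleen libraries, a rise of 9.50-fold (log2 change 3.25 ± 0.56, adjusted p = 0.000389). Rgs1, which blunts chemokine receptor signalling and is high in resident lymphocytes, had 908, 139.7 and 229 in the graft libraries, against 45.1, 41.4 and 57 in the spleen libraries, a rise of 6.38-fold (log2 change 2.67 ± 0.87, adjusted p = 0.0286). Cxcr6, the receptor for the chemokine CXCL16, had 108, 25.1 and 22.7 in the graft libraries, against 5.58, 2.25 and 1.61 in the spleen libraries, a rise of 10.6-fold (log2 change 3.41 ± 0.97, adjusted p = 0.0137). Nr4a2, an orphan nuclear receptor induced by stimulation, rose 5.89-fold (log2 change 2.56 ± 0.70, adjusted p = 0.0112) with 42.9, 31.8 and 55.8 in the graft libraries, against 6.96, 3.86 and 9.38 in the spleen libraries. Sik1, a salt-inducible kinase, and Osgin1, an oxidative stress gene, rose 15.4-fold and 19.8-fold (adjusted p = 0.00204 and 0.00363). In all 6 the groups did not overlap, and library 1 held the highest graft value except for Nr4a2 and Sik1. Without graft library 1 the changes of Cxcr6 and Rgs1 were 2.70 and 1.89 on the log2 scale and neither was called (adjusted p = 0.0646 and 0.137). Cxcr6 also missed the threshold with quantile normalization (adjusted p = 0.083) and without spleen library 3 (adjusted p = 0.054), Rgs1 without each library but graft library 2 (adjusted p = 0.0563 to 0.137), Nr4a2 without graft library 3 or spleen library 2 (adjusted p = 0.0538 and 0.0529), and Osgin1 with quantile normalization (adjusted p = 0.0735). Itgb1, the beta chain that pairs with CD49a and with CD49b, fell 3.79-fold (log2 change -1.92 ± 0.47, adjusted p = 0.00543) with 105, 113 and 76.2 in the graft libraries, against 359, 402 and 347 in the spleen libraries, and Spry2, an inhibitor of growth factor signalling, fell 5.06-fold (adjusted p = 0.00904). Neither Itgb1 nor Spry2 passed on the leukocyte scale, and Spry2 also missed the threshold without graft library 2 (adjusted p = 0.057).

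Several genes often used to define residency did not pass. Cd69, which holds S1PR1 off the cell surface, had 64.4, 33.6 and 30.3 in the graft libraries, against 25.2, 26.5 and 30.1 in the spleen libraries (adjusted p = 0.605). Itgae, the CD103 gene, had 22.6, 5.92 and 11 in the graft libraries, against 6.20, 6.53 and 6.12 in the spleen libraries (adjusted p = 0.576), and Nr4a1 had 163, 45.6 and 39.2 in the graft libraries, against 25.9, 16.7 and 27.6 in the spleen libraries (adjusted p = 0.121). Prdm1, which encodes Blimp1, had 4.14, 6.96 and 10.3 in the graft libraries, against 47.7, 36.3 and 32.5 in the spleen libraries (adjusted p = 0.0553). Cd69, Itgae and Nr4a1 were called higher on the leukocyte scale, by 2.42, 2.64 and 3.36 (adjusted p = 0.00256, 0.016 and 0.00301), where the median of all genes was 2.25. Prdm1 was called lower with quantile normalization (adjusted p = 0.0174). Zfp683, which encodes Hobit, had 0, 2.24 and 0 in the graft libraries, against 0.719, 0.734 and 0 in the spleen libraries and was not tested because it did not reach the filter.

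TGF-beta, a cytokine that promotes residency and CD49a, has its own response list, of which 6 of 18 tested genes rose and 1 fell (median 0.84). Tgfbr1, a receptor chain, had 104, 198 and 274 in the graft libraries, against 11.1, 14.4 and 11.6 in the spleen libraries, a rise of 13.5-fold (log2 change 3.75 ± 0.69, adjusted p = 0.000623). Ltbp1, which stores latent TGF-beta, had 427, 762 and 1663 in the graft libraries, against 40.02, 94.9 and 75.1 in the spleen libraries, a rise of 12.2-fold (log2 change 3.61 ± 0.71, adjusted p = 0.00105), and Itgb8, an integrin chain that frees it, had 13.5, 21.6 and 21.8 in the graft libraries, against 0.437, 1.80 and 1.53 in the spleen libraries. Furin, which cleaves the precursor, had 408, 82.2 and 197 in the graft libraries, against 35.6, 22.4 and 19.3 in the spleen libraries, a rise of 7.29-fold (log2 change 2.87 ± 0.60, adjusted p = 0.00183). Pmepa1, a feedback inhibitor, and Rgs16, an inhibitor of G protein signals, rose 7.03-fold and 10.8-fold (adjusted p = 0.0165 and 0.0152). Smad3, the signal transducer, was lower, with 19.4, 30.04 and 24.2 in the graft libraries, against 182, 189 and 125 in the spleen libraries, a fall of 6.49-fold (log2 change -2.70 ± 0.74, adjusted p = 0.0106) that did not pass on the leukocyte scale (adjusted p = 0.379). Tgfbr1, Ltbp1 and Itgb8 were highest in graft library 3, where most rises and the chemosensory receptors peaked, and Itgb8 was not called without graft library 2 (adjusted p = 0.082). Furin, Pmepa1 and Rgs16 were highest in library 1. Of these, Pmepa1 and Rgs16 missed the threshold without graft library 3 (adjusted p = 0.0904 and 0.0662), Pmepa1 also without graft library 1 (adjusted p = 0.0683).

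NK receptors had the largest share of falls among the function lists: 18 of 29 tested genes fell and 1 rose, with a median of -2.48. Klrb1c, the NK1.1 gene (GRCm38 chromosome 6, 128778485 to 128789215), had 108, 23.1 and 72.2 in the graft libraries, against 565, 699 and 619 in the spleen libraries, a fall of 10.8-fold (log2 change -3.44 ± 0.54, adjusted p = 0.000192). Klra8, the Ly49H gene whose receptor binds m157, had 63.8, 13.5 and 26 in the graft libraries, against 362, 424 and 451 in the spleen libraries, a fall of 14-fold (log2 change -3.81 ± 0.83, adjusted p = 0.00237). Klra3, which encodes Ly49C, fell 17.1-fold (log2 change -4.10 ± 0.63, adjusted p = 0.000154) with 31, 9.49 and 9.86 in the graft libraries, against 238, 289 and 263 in the spleen libraries. Klrk1, the NKG2D gene, had 304, 71.2 and 72.9 in the graft libraries, against 850.4, 940.4 and 1226 in the spleen libraries, and Klrd1, the CD94 gene that pairs with NKG2 chains, had 118, 24.7 and 44.1 in the graft libraries, against 459, 461 and 466 in the spleen libraries. Both fell, Klrk1 8.46-fold (log2 change -3.08 ± 0.74, adjusted p = 0.00496) and Klrd1 8.98-fold (log2 change -3.17 ± 0.95, adjusted p = 0.018). The inhibitory partner Klrc1, or NKG2A, had 161, 32.1 and 39.5 in the graft libraries, against 193, 269 and 213 in the spleen libraries and did not pass (adjusted p = 0.0844), and Cd226, or DNAM-1, had 27.7, 13.9 and 22 in the graft libraries, against 23.4, 44 and 45.5 in the spleen libraries (adjusted p = 0.427). Ly49 genes are close copies of each other, so reads may be shared among Klra genes, and the strains of an F1 mouse carry different Ly49 genes.

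The rise on this list was Lilrb4, an inhibitory receptor of myeloid and stimulated NK cells, with 366, 150.2 and 68.2 in the graft libraries, against 5.88, 11.2 and 5.72 in the spleen libraries, 19-fold (log2 change 4.25 ± 0.99, adjusted p = 0.00391). The receptor falls ran beside a fall of the pan-leukocyte genes, of which 10 of 20 were lower and 0 higher with a median of -2.02. On the leukocyte scale 6 NK receptor genes were lower, with Klrb1c at -1.57 (adjusted p = 0.0208) and Klra8 at -1.95 (adjusted p = 0.0265), against a median of 2.25 over all genes. Without graft library 2, 14 of the genes were called lower, and Klrd1 missed the threshold (adjusted p = 0.0835).

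Of 16 signalling adaptors and kinases of these receptors, 6 fell, 0 rose and 10 did not pass (median -1.86, and 0.0 on the leukocyte scale). Without graft library 2 the count of falls was 3, and without graft library 3 it was 2. Tyrobp, the DAP12 adaptor of activating Ly49 receptors, had 401, 234 and 171 in the graft libraries, against 974, 1172 and 1072 in the spleen libraries, a fall of 4.23-fold (log2 change -2.08 ± 0.72, adjusted p = 0.0374). Hcst, the DAP10 adaptor of NKG2D, had 38.4, 9.53 and 35.9 in the graft libraries, against 158, 185 and 179 in the spleen libraries, a fall of 7.04-fold (log2 change -2.81 ± 0.94, adjusted p = 0.0324). The kinase Lck fell 6.30-fold (log2 change -2.66 ± 0.71, adjusted p = 0.00901) with 176, 121 and 101 in the graft libraries, against 878, 847 and 741 in the spleen libraries, and its relative Fyn fell 3.45-fold (adjusted p = 0.018). Fcer1g, the adaptor of NKp46, had 412, 271 and 120.4 in the graft libraries, against 823, 834 and 787 in the spleen libraries and did not pass (adjusted p = 0.0647). Lck and Fyn were called again without graft library 2, though Fyn was not without graft library 3 (adjusted p = 0.077), and Tyrobp and Hcst were not (adjusted p = 0.0866 and 0.141), and no adaptor gene fell on the leukocyte scale.

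Of 16 NK cell maturation genes 3 fell and 0 rose (median -1.46, and 0.4 on the leukocyte scale). Klrg1, an inhibitory receptor of terminally mature NK cells, had 42.3, 14.9 and 32.2 in the graft libraries, against 303, 379 and 344 in the spleen libraries, a fall of 12.1-fold (log2 change -3.59 ± 0.70, adjusted p = 0.000941) that was also called on the leukocyte scale (adjusted p = 0.0204). Cma1, a protease gene of mast cells that mature NK cells also transcribe, had 54.2, 21.4 and 23 in the graft libraries, against 171, 193 and 196 in the spleen libraries, and Spn, or CD43, had 60.4, 31.1 and 44 in the graft libraries, against 279.9, 220.2 and 222 in the spleen libraries. Both fell (log2 changes -2.60 ± 0.64 and -2.43 ± 0.58), but neither passed on the leukocyte scale. Cd27, a marker of less mature cells, had 69.3, 28 and 44.4 in the graft libraries, against 79.6, 101 and 209 in the spleen libraries (adjusted p = 0.157), and Itgam, or CD11b, had 81.3, 174 and 48 in the graft libraries, against 218, 268 and 277 in the spleen libraries (adjusted p = 0.0976).

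Among 23 lymphocyte transcription factors 4 fell and 2 rose. Tbx21, which encodes T-bet and drives NK maturation, had 54.1, 33.5 and 53.4 in the graft libraries, against 564, 545 and 469 in the spleen libraries, a fall of 11.2-fold (log2 change -3.49 ± 0.82, adjusted p = 0.00446). It was called lower on the leukocyte scale as well (log2 change -1.62, adjusted p = 0.025). Eomes, its partner in conventional NK cells, had 58.3, 7.17 and 62.6 in the graft libraries, against 125, 99.2 and 115 in the spleen libraries, so that library 2 lay far below libraries 1 and 3, and it did not pass (adjusted p = 0.167). Ikzf1, the Ikaros gene, fell 8.87-fold (log2 change -3.15 ± 0.76, adjusted p = 0.00495) with 40.5, 34.6 and 54.8 in the graft libraries, against 351, 447 and 364 in the spleen libraries, but did not pass on the leukocyte scale (adjusted p = 0.091). Ikzf1 is itself a member of the pan-leukocyte list that sets this scale, so that result is not a separate check. Ahr, the aryl hydrocarbon receptor needed by many tissue lymphocytes, had 52.8, 16 and 59.5 in the graft libraries, against 1.76, 4.63 and 4.81 in the spleen libraries, a rise of 8.49-fold (log2 change 3.09 ± 0.72, adjusted p = 0.00388). Maf rose 3.38-fold (adjusted p = 0.0467) and Lef1 fell 4.63-fold (adjusted p = 0.0422). Neither Maf nor Lef1 was called without graft library 2 (adjusted p = 0.0834 and 0.125). Zeb2, a factor of terminal maturation, had 58.5, 74 and 909.8 in the graft libraries, against 159.9, 184 and 146 in the spleen libraries and Id2 had 242, 58.8 and 92.5 in the graft libraries, against 479, 478 and 453 in the spleen libraries, neither past the threshold (adjusted p = 0.984 and 0.0912).

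Granzymes split into those that NK cells already hold in spleen and a cluster that was nearly silent there. Gzma had 5214, 620.5 and 1211 in the graft libraries, against 4982, 5635 and 5905 in the spleen libraries (adjusted p = 0.304), and Gzmb had 1244, 186 and 513 in the graft libraries, against 494, 605 and 645 in the spleen libraries (adjusted p = 0.91). Prf1, the perforin gene, had 703, 135 and 367 in the graft libraries, against 1152, 1589 and 1408 in the spleen libraries (adjusted p = 0.0825). Graft library 1 was the highest graft library for all 3. It lay within the spleen range for Gzma and above every spleen library for Gzmb, where graft library 3 lay within the spleen range. In contrast, Gzmc, a granzyme of strongly stimulated killer cells (GRCm38 chromosome 14, 56231441 to 56234656), had 231, 35.7 and 33.8 in the graft libraries, against 0, 0 and 0.764 in the spleen libraries, a rise of 55.2-fold (log2 change 5.79 ± 1.04, adjusted p = 0.000483). Its neighbours Gzmd, Gzme and Gzmf were listed at 0 in all 3 spleen libraries. Their graft values were 67.5, 12.6 and 10.9 for Gzmd, 42.9, 10.6 and 2.27 for Gzme and 26.5, 11.7 and 5.62 for Gzmf (adjusted p = 0.000421, 0.00247 and 0.00378). All 4 were called without graft library 2, and also on the leukocyte scale, where all 2967 rises passed. These genes are near copies of each other and reads may be split between them, so their separate levels are uncertain.

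The promoters of the 4 granzyme genes that rose together are shown because their sequences are alike. Each runs from 250 bases before to 50 bases after the RefSeq start on GRCm38.p6, in the direction of the gene, and lies on the minus strand of chromosome 14. Capitals mark the RUNX motif TGTGGTT or its reverse complement AACCACA, searched on both strands, which 5.27 percent of 32851 promoters of the same length hold.
Gzmc (chr14:56234608-56234907): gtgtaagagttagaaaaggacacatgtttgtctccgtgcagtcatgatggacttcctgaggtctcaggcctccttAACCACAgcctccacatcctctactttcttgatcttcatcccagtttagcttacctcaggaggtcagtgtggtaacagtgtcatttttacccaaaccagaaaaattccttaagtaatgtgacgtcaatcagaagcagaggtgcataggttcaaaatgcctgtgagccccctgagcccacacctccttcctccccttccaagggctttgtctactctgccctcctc
Gzmd (chr14:56132544-56132843): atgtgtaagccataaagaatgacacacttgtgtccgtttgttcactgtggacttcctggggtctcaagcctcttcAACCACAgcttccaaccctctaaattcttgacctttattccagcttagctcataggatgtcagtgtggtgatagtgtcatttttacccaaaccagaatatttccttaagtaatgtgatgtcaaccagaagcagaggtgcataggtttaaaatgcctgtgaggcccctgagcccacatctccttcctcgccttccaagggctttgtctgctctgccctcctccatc
Gzme (chr14:56120576-56120875): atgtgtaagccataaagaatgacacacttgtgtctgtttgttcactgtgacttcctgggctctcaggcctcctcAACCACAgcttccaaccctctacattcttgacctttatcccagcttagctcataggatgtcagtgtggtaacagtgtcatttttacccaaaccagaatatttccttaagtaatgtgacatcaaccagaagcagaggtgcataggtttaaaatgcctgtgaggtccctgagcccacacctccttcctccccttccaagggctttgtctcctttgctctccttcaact
Gzmf (chr14:56211358-56211657): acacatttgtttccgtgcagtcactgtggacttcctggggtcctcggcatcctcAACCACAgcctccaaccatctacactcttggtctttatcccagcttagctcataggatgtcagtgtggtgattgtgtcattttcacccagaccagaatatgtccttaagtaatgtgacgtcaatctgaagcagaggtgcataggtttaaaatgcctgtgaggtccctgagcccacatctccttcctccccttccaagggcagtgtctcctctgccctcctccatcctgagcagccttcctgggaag
Each holds 1 match, beginning 175, 175, 176 and 196 bases before the start, and any pair of the 4 is 85.0 to 93.7 percent identical over the aligned positions. A match is a description of the letters and not a shown binding site.

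Other cytotoxic genes gave 2 falls, so that 4 of 20 on that list rose, a share near the 18.5 percent of all genes, and 2 fell. Nkg7, a granule protein gene, had 688, 127 and 301 in the graft libraries, against 2591, 2665 and 2395 in the spleen libraries, a fall of 8.53-fold (log2 change -3.09 ± 0.88, adjusted p = 0.0135) that missed the threshold without graft library 2 (adjusted p = 0.0768). Stxbp2, needed for granule release, fell 3.40-fold (adjusted p = 0.0177) but had a change of 0.10 on the leukocyte scale. Without graft library 3 Stxbp2 was not called (adjusted p = 0.0718). The death ligands Fasl and Tnfsf10 had 183, 33.3 and 58.7 and 45.6, 19.7 and 20.5 in the graft, against 135, 186 and 234 and 9.09, 10.2 and 16 in spleen (adjusted p = 0.255 and 0.262).

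Of 16 genes of secreted cytokines and chemokines 2 rose and 1, Ccl5, fell. Areg, an epidermal growth factor ligand linked to tissue repair, had 43.1, 1.78 and 9.37 in the graft and 0 in spleen (adjusted p = 0.0208). Its call rested on library 1, without which the log2 change was 2.43 (adjusted p = 0.112), and it also missed the threshold without graft library 3 or any 1 spleen library, with quantile normalization and with a pseudocount of 10 (adjusted p = 0.0608, 0.0531 to 0.0561, 0.177 and 0.193). Lif, a cytokine of the interleukin-6 family, had 17.5, 21.6 and 1.90 in the graft and 0 in spleen (adjusted p = 0.0271), and was not called without library 2 (adjusted p = 0.106). Ifng had 11.7, 0 and 2.57 in the graft libraries, against 12.4, 11.9 and 11.2 in the spleen libraries. Ccl3 and Ccl4, chemokines of stimulated NK cells, reached 435 and 354 in graft library 1, whereas libraries 2 and 3 had 24.5 and 17.9 for Ccl3 and 28.7 and 45.3 for Ccl4. Spleen had 49.6, 36.8 and 45.1 for Ccl3 and 114, 72.6 and 124 for Ccl4, and Ifng, Ccl3 and Ccl4 did not pass (adjusted p = 0.203, 0.81 and 0.803).

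Of 21 cytokine receptors 4 were higher, a share near the 18.5 percent of all genes, 3 were lower and 14 did not pass. Il2ra, the high-affinity interleukin-2 receptor chain, had 87.4, 33.4 and 31.7 in the graft libraries, against 1.53, 2.18 and 2.09 in the spleen libraries, a rise of 15.8-fold (log2 change 3.99 ± 0.89, adjusted p = 0.00291). Csf2rb, the shared chain of the granulocyte-macrophage colony-stimulating factor receptor, had 102, 109 and 58.6 in the graft libraries, against 0.463, 0.482 and 0 in the spleen libraries, a rise of 67.8-fold (log2 change 6.08 ± 1.61, adjusted p = 0.00908). Blood CD49b+ NK cells had 3.62, 5772 and 3.87 for Csf2rb, so that 1 blood library lay far above the graft and 2 far below, and it was not called against blood (0.79 on the log2 scale, adjusted p = 0.745) or with a pseudocount of 10 (adjusted p = 0.0955). Il1rl1, the interleukin-33 receptor, rose 17.8-fold (log2 change 4.15 ± 0.96, adjusted p = 0.00367) with 64.7, 35.7 and 51.4 in the graft libraries, against 2.65, 2.04 and 1.02 in the spleen libraries, and Ifngr2 rose 14.7-fold (adjusted p = 0.00285). Il18rap, a chain of the interleukin-18 receptor, had 142, 109 and 136 in the graft libraries, against 643, 846 and 781 in the spleen libraries, a fall of 5.82-fold (log2 change -2.54 ± 0.49, adjusted p = 0.000848). Il12rb1, of the interleukin-12 receptor, fell 3.34-fold (adjusted p = 0.0441), and not without graft library 2 (adjusted p = 0.188). Il2rb, which carries interleukin-15 signals, had 1513, 285 and 816 in the graft libraries, against 1261, 1245 and 1134 in the spleen libraries (adjusted p = 0.498). Csf2rb and Il1rl1 are also genes of myeloid or innate lymphoid cells, and macrophage markers summed to 961, 3430.0 and 489 in the graft, against 46.7, 406 and 45.5 in spleen. Their part in these rises was not tested.

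Of 14 chemokine receptors 4 rose, Ccr1, Ccr7, Cxcr6 and Xcr1, and 2 fell, Cxcr3 and Cx3cr1. Ccr1, an inflammatory chemokine receptor, had 56, 37.2 and 11.7 in the graft libraries, against 0, 0 and 0.747 in the spleen libraries, a rise of 25.1-fold (log2 change 4.65 ± 1.05, adjusted p = 0.00314). Xcr1, a receptor for an NK chemokine and a dendritic cell marker, had 24.3, 51 and 56.6 in the graft libraries, against 0.562, 1.22 and 4.11 in the spleen libraries, a rise of 16.2-fold (log2 change 4.02 ± 0.73, adjusted p = 0.000535). Cxcr3, the receptor of interferon-induced chemokines, had 7.78, 1.97 and 9.98 in the graft libraries, against 63.9, 41.4 and 33.9 in the spleen libraries, a fall of 6.95-fold (log2 change -2.80 ± 0.95, adjusted p = 0.0343), which was not called without graft library 2 (adjusted p = 0.139).

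Inhibitory receptors and genes of chronic stimulation had the largest share of rises among the function lists on the deposited scale, with 8 of 18 higher and 1 lower and a median of 1.78, against 18.5 and 4.18 percent of all genes. Tigit, an inhibitory receptor for nectin family ligands (GRCm38 chromosome 16, 43648867 to 43664146), had 612, 250.2 and 524 in the graft libraries, against 57.6, 47.6 and 51.3 in the spleen libraries, a rise of 8.16-fold (log2 change 3.03 ± 0.48, adjusted p = 0.000214). Pdcd1, the PD-1 gene, had 111, 24 and 17.9 in the graft and 0 in all spleen libraries (adjusted p = 0.00135). Cd274, which encodes its ligand PD-L1, had 129, 60.2 and 48.3 in the graft libraries, against 13.1, 15.2 and 9.34 in the spleen libraries, a rise of 5.50-fold (log2 change 2.46 ± 0.50, adjusted p = 0.00136). Havcr2, the TIM-3 gene, rose 7.81-fold (log2 change 2.97 ± 0.67, adjusted p = 0.00335) with 65.4, 20.6 and 22.7 in the graft libraries, against 2.54, 4.91 and 2.41 in the spleen libraries. Ctla4 rose 10.1-fold (log2 change 3.33 ± 0.87, adjusted p = 0.0081) with 50.3, 8.23 and 24.8 in the graft libraries, against 1.41, 0 and 3.93 in the spleen libraries. Cish, which restrains cytokine signalling in NK cells, had 211, 46.1 and 130.2 in the graft libraries, against 12.6, 15.2 and 14.4 in the spleen libraries, a rise of 7.29-fold (log2 change 2.87 ± 0.75, adjusted p = 0.00804). Ikzf2, the Helios gene, and Nt5e, the CD73 ectoenzyme that makes adenosine, rose 9.50-fold and 6.05-fold (adjusted p = 0.0174 and 0.0276). The leukocyte scale gave 13 of the 18 higher, against 17 of 22 residency genes and 13 of 18 TGF-beta response genes. On that scale 41.1 percent of all genes were called higher, and the median log2 change of all genes was 2.25. Each of the 8 passed without graft library 2, and for each the lowest graft library was above the highest spleen library.

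Lag3 had 132, 36 and 61.9 in the graft libraries, against 15.3, 14.7 and 10.6 in the spleen libraries and missed the threshold (adjusted p = 0.055). Cd160, an activating and inhibitory receptor of cytotoxic cells, was the member that fell, with 28.2, 0 and 19.6 in the graft libraries, against 83.7, 69.4 and 70.8 in the spleen libraries (adjusted p = 0.0435, and 0.305 without graft library 2, where it was at 0). With quantile normalization Havcr2, Ctla4, Nt5e and Ikzf2 missed the threshold (adjusted p = 0.0769, 0.129, 0.0887 and 0.0511). Nt5e and Ikzf2 also missed it without graft library 1 (adjusted p = 0.0749 and 0.0779), and Ctla4 without spleen library 2 (adjusted p = 0.0527). Lag3 was called higher on the leukocyte scale (adjusted p = 0.000311).

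The promoter of Cish, a known target of STAT5 downstream of interleukins 2 and 15, is shown with the STAT motif TTCNNNGAA in capitals, a motif that reads the same on both strands. It lies on the plus strand at chr9:107296409-107296708 of GRCm38.p6, with the same bounds around the start as above.
Cish: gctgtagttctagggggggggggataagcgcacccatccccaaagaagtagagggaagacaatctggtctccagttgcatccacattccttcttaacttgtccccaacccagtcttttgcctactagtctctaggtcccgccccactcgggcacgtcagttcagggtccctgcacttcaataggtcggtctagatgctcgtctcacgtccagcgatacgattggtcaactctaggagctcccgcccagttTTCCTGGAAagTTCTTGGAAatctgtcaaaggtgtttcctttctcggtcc
The 2 matches lie at and just after the annotated start. Of the 32851 promoters, 8.30 percent hold 1 or more such matches and 0.457 percent hold 2 or more.

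**Figure D4:**
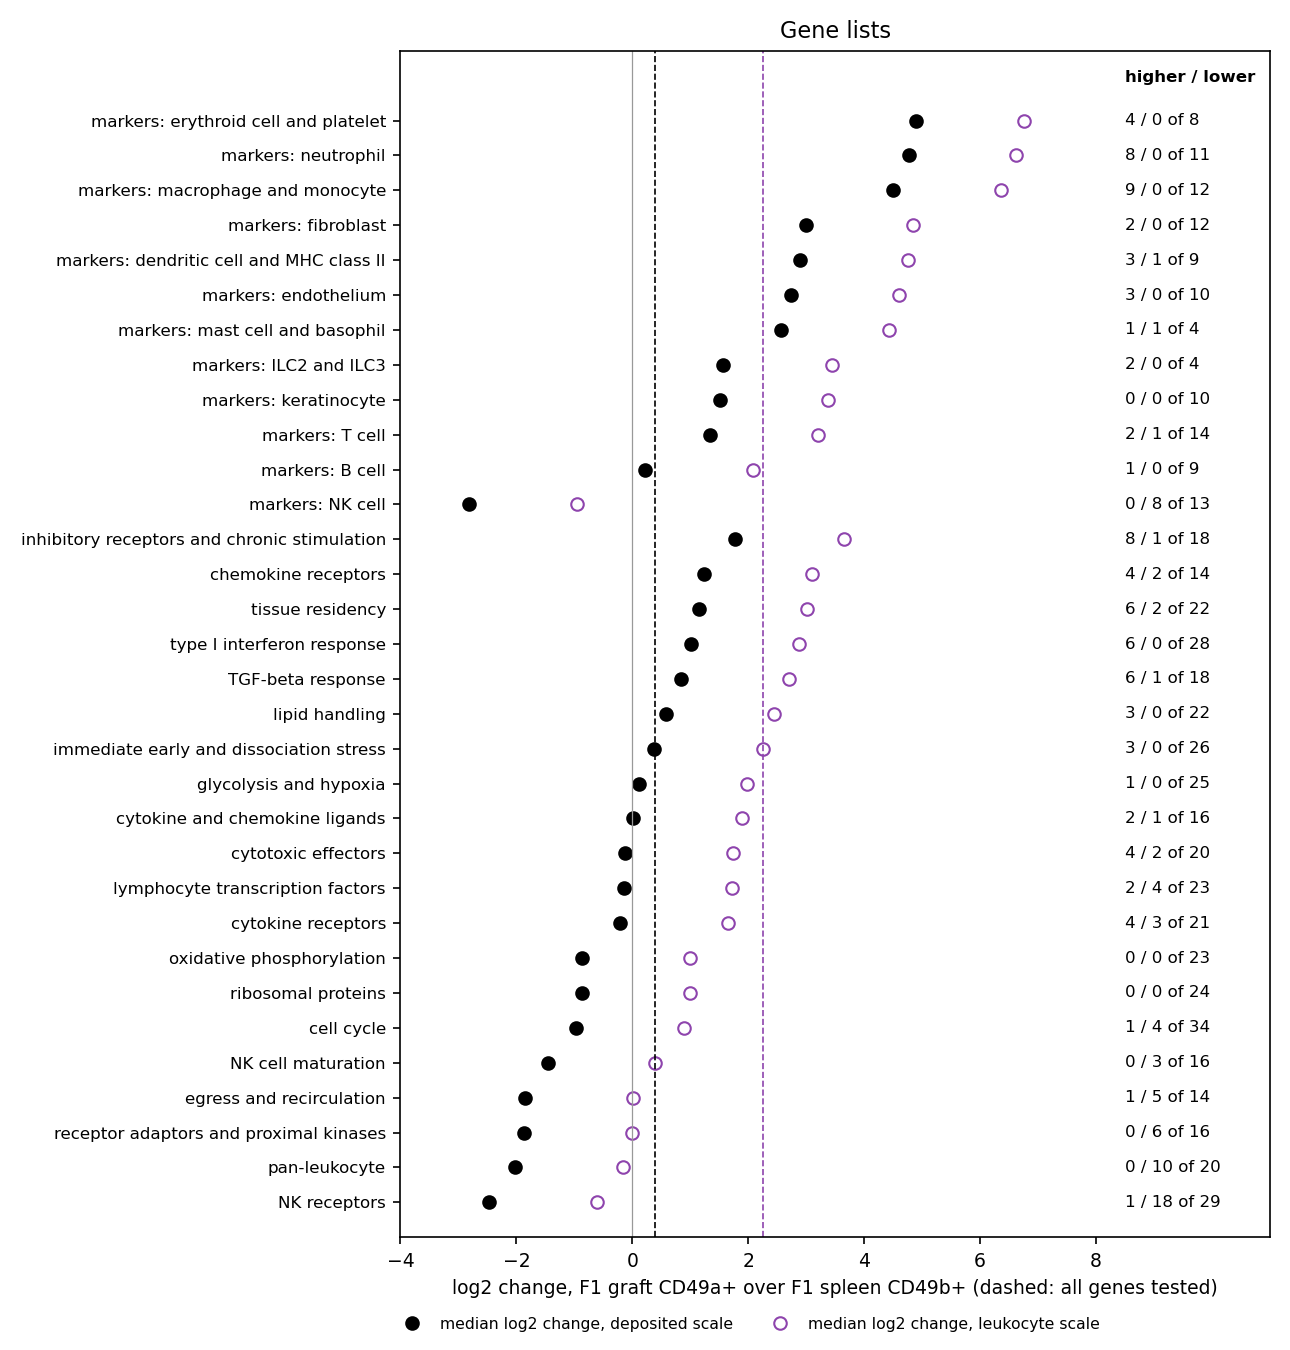
Median log2 change of each gene list, F1 graft CD49a+ over F1 spleen CD49b+, on the deposited scale (filled) and the leukocyte scale (open), with dashed lines at the medians of all genes tested (0.39 and 2.25). The counts at the right are members higher and lower of those tested, from 8 higher and 1 lower of 18 for inhibitory receptors to 1 higher and 18 lower of 29 for NK receptors.

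The list of immediate early genes and genes of cell dissociation had 3 rises and 0 falls among 26. This share of rises was below the 18.5 percent of all genes, and the list median was 0.38 beside 0.39 for all genes. Dusp1, a phosphatase that damps stress kinases, had 127, 65.6 and 46.6 in the graft libraries, against 20.3, 22 and 25.1 in the spleen libraries, a rise of 3.16-fold (log2 change 1.66 ± 0.51, adjusted p = 0.0195). Hspa1a, a heat shock protein gene, had 49, 43.5 and 2.90 in the graft libraries, against 0, 0.662 and 0 in the spleen libraries, and Ier3 rose 13.6-fold (adjusted p = 0.0168), though not without library 2 (adjusted p = 0.0534). Fos had 18.1, 28 and 12 in the graft libraries, against 7.26, 2.82 and 8.61 in the spleen libraries and Jun had 26.1, 35.6 and 25.7 in the graft libraries, against 18.5, 6.43 and 12.4 in the spleen libraries, neither past the threshold (adjusted p = 0.0678 and 0.152), though both were called higher on the leukocyte scale (adjusted p = 0.00395 and 0.013). Dusp1 was not called without graft library 1 (adjusted p = 0.0896), nor Hspa1a with quantile normalization (adjusted p = 0.0676).

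Type I interferon response genes gave 6 rises and 0 falls of 28, a share near that of all genes, and all 6 were highest in graft library 2 or 3. Isg15, a ubiquitin-like modifier, had 15.6, 55.7 and 41.2 in the graft libraries, against 1.20, 4.27 and 3.59 in the spleen libraries, a rise of 9.08-fold (log2 change 3.18 ± 0.77, adjusted p = 0.00516). Oasl2, an antiviral gene, rose 15.4-fold (log2 change 3.94 ± 1.22, adjusted p = 0.0214) with 12.6, 14.2 and 50.1 in the graft libraries, against 1.90, 0 and 0 in the spleen libraries. Ifit1, Mx2, Oas3 and Rsad2 also rose, but were not called without library 2 (adjusted p = 0.128, 0.151, 0.155 and 0.102), and Oasl2 was not called without graft library 3 (adjusted p = 0.108).

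Of 25 glycolysis and hypoxia genes 1 passed: Hk2, a hexokinase, had 18.8, 33.5 and 94.3 in the graft libraries, against 0.712, 1.08 and 3.78 in the spleen libraries, a rise of 15.7-fold (log2 change 3.97 ± 0.76, adjusted p = 0.000834). The glucose transporter Slc2a1 had 21.6, 8.88 and 0 in the graft libraries, against 22.3, 16.3 and 19.3 in the spleen libraries (adjusted p = 0.207). Dgat1, which completes triglyceride synthesis, rose 6.19-fold (log2 change 2.63 ± 0.75, adjusted p = 0.0138) with 321, 72.8 and 86.8 in the graft libraries, against 24.4, 11.2 and 27.6 in the spleen libraries, and was not called without graft library 1 (adjusted p = 0.074). Sqle and Cd36 were the other rises among 22 lipid genes, and neither was called without library 2 (adjusted p = 0.126 and 0.105).

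Of 34 cell cycle genes 1 rose and 4 fell, with a median of -0.97 that turned to 0.89 on the leukocyte scale. Tyms, thymidylate synthase, had 729, 517 and 761 in the graft libraries, against 94.8, 96.8 and 66.2 in the spleen libraries, a rise of 7.71-fold (log2 change 2.95 ± 0.77, adjusted p = 0.00855). Plk1, a mitotic kinase, had 0, 44.4 and 0 in the graft libraries, against 54.5, 22.6 and 41.3 in the spleen libraries, and Ccnb2, a mitotic cyclin, had 9.84, 66.7 and 0 in the graft libraries, against 79.3, 38.8 and 78.9 in the spleen libraries. Both fell (adjusted p = 0.0303 and 0.0419), and graft libraries 1 and 3 lay far below the spleen while library 2 overlapped it. Mcm3, a replication helicase subunit, fell 6.02-fold, and Hmgb2 fell 3.53-fold (adjusted p = 0.0353 and 0.0173). None of the 4 falls passed on the leukocyte scale or without graft library 3 (adjusted p = 0.181, 0.386, 0.206 and 0.152 for Plk1, Ccnb2, Mcm3 and Hmgb2 without it). Against blood Plk1 and Ccnb2 had log2 changes of 0.00 and -0.31, and Ccnb2 missed the threshold under 13 of the 17 alternatives. Mki67 had 30.6, 195 and 72.4 in the graft libraries, against 145, 55.6 and 89.5 in the spleen libraries (adjusted p = 0.831). Neither the 23 oxidative phosphorylation genes nor the 24 ribosomal protein genes gave a call by limma, with medians of -0.86 and -0.87 that became 1.0 and 0.99 on the leukocyte scale.

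Markers of other cells were present beside the NK genes. Of 12 macrophage and monocyte markers 9 rose and 0 fell, and of 11 neutrophil markers 8 rose and 0 fell. Without graft library 2 the counts were 5 and 5. In all 3 spleen libraries 8 of 12 neutrophil markers and 3 of 13 macrophage markers, Fcgr1, C1qb and C1qc, were listed at 0, and none was at 0 throughout the graft. Cxcr2, a chemokine receptor of neutrophils, had 627, 1878 and 356 in the graft libraries, against 8.36, 17.1 and 8.69 in the spleen libraries, a rise of 63.5-fold (log2 change 5.99 ± 0.93, adjusted p = 0.000171). C1qa, a complement gene of macrophages, had 33.9, 49.2 and 8.21 in the graft libraries, against 0.719, 0 and 0 in the spleen libraries, a rise of 21.1-fold (log2 change 4.40 ± 1.13, adjusted p = 0.00764), and Csf1r had 48.1, 121 and 21.9 in the graft libraries, against 0, 364 and 0 in the spleen libraries, where spleen library 2 was highest. C1qa missed the threshold with quantile normalization (adjusted p = 0.054). The haemoglobin gene Hbb-bs was at 11464 in graft library 2 and at 89.7 and 0 in libraries 1 and 3, against 0, 0.462 and 12.3 in spleen. It was called higher, but not without graft library 2 (log2 change 1.82, adjusted p = 0.429), and missed the threshold under 10 of the 17 alternatives. Erythroid and platelet markers gave 4 rises of 8, and 1 without library 2.

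Among markers of structural skin cells, 0 of 10 for keratinocytes passed, and Krt5 and Krt14 had 0, 8.08 and 0 and 0, 16.6 and 6.13 in the graft, against 0, 1.09 and 0 and 0, 0 and 0 in spleen (adjusted p = 0.777 and 0.386). Among 12 fibroblast markers Col3a1 and Dcn rose, with 29.8, 64.9 and 16.1 for Col3a1 and 50.1, 106 and 14.6 for Dcn in the graft, and neither was called without library 2 (adjusted p = 0.0872 and 0.0929). Of 10 endothelial markers 3 rose. Vwf, the von Willebrand factor gene, had 88.9, 205 and 729 in the graft libraries, against 11.1, 10.3 and 9.01 in the spleen libraries, a rise of 21.5-fold (log2 change 4.43 ± 0.81, adjusted p = 0.000571) with its peak in library 3.

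T cell markers gave 2 rises and 1 fall of 14, namely Cd8a and Cd3d against Foxp3. This share of rises was below the 18.5 percent of all genes. Sums over 16 T cell markers overlapped, with 1218, 358 and 683 in the graft libraries, against 594, 673 and 720 in the spleen libraries. Cd8a had 45.4, 59.3 and 101 in the graft libraries, against 1.09, 2.32 and 0.737 in the spleen libraries, a rise of 28.7-fold (log2 change 4.84 ± 0.66, adjusted p = 8.45e-05), and Cd3d rose 8.40-fold (log2 change 3.07 ± 0.68, adjusted p = 0.00283) with 36.4, 81.2 and 122 in the graft libraries, against 8.70, 5.83 and 8.65 in the spleen libraries. Of 4 mast cell and basophil markers, Ms4a2 rose 8.42-fold (adjusted p = 0.0107, and 0.0545 without spleen library 3) and Cma1 fell. Of 9 dendritic cell and MHC class II markers 3 rose and 1 fell, and H2-Aa had 75, 131 and 29.4 in the graft libraries, against 6.54, 2.01 and 3.37 in the spleen libraries (adjusted p = 0.0445, and 0.131 without library 2). The part of these cells in the rises described above was not tested.

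The B6 model gave the same contrast in libraries that were not shared with F1. There 2011 genes (12.5 percent) were higher and 605 (3.77 percent) lower in graft CD49a+ cells than in spleen. Of the F1 rises 48.1 percent, and of the B6 rises 71.0 percent, were the 1428 genes called in both. Of the F1 falls 38.2 percent, and of the B6 falls 42.3 percent, were the 256 called in both. The sign in B6 matched for 97.9 percent of F1 rises, where 59.0 percent of all genes had that sign, and for 94.5 percent of F1 falls, where 40.7 percent did. Across the 16045 genes the changes correlated with r = 0.714, a description over genes that are not independent. The filter ran over all 30 libraries, B6 skin included, so the match of rises was partly set in advance. The mean log2 level of the pan-leukocyte genes was 5.15, 8.38 and 6.1 in B6 graft CD49a+ libraries, against 8.92, 9.03 and 8.93 in B6 spleen. Its part in the match was not tested. S1pr5 had 1.77, 0.800 and 4.98 in B6 graft CD49a+ libraries, against 327, 300.3 and 342 in B6 spleen (adjusted p = 0.000178), and Ccl5 had 64.7, 1173 and 231, against 7020.4, 6448 and 7121 (adjusted p = 0.000728). Litaf had 247, 794 and 253 in B6 graft CD49a+ libraries, against 48.6, 36.9 and 34.8 in B6 spleen (adjusted p = 0.00105).

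**Figure D5:**
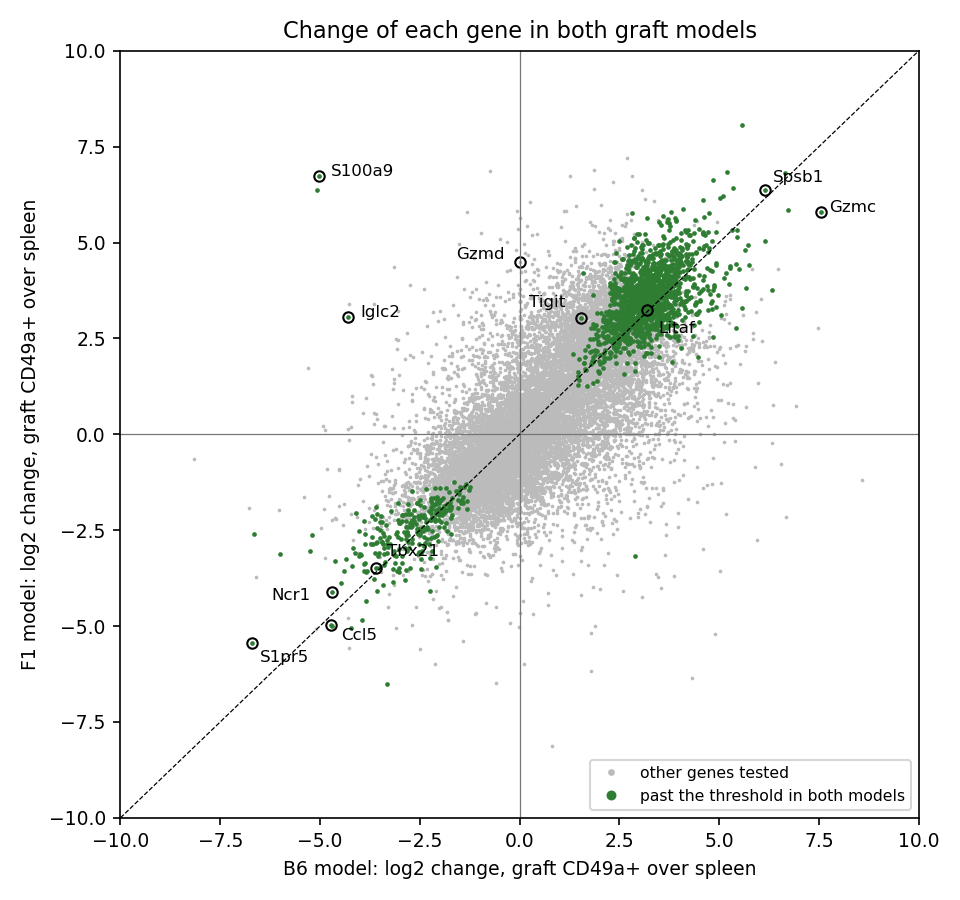
Log2 change of each of the 16045 genes, graft CD49a+ over spleen, in the F1 model (vertical axis) and in the B6 model (horizontal axis), with genes past the threshold in both models in green and the dashed line at equal change. Changes in the models correlated across genes (r = 0.714), while S100a9 and Iglc2 lie in the upper left, higher in the F1 graft and lower in the B6 graft than in the spleen of that model.

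Differences between the models were tested as an interaction. By limma 1 gene passed, Iglc2, and 651 had an unadjusted p under 0.05. Iglc2, an immunoglobulin lambda constant gene, had 7.03, 5.21 and 10.5 in F1 graft CD49a+ libraries and 0 in F1 spleen, whereas B6 had 0, 0 and 1.63 in graft CD49a+ libraries, against 8.38, 61.4 and 33 in spleen. Iglc2 was not called on the leukocyte scale (log2 difference 6.79, adjusted p = 0.617). Gzmd was not called in B6, with 0, 0 and 0 in the graft and 0, 0 and 0 in spleen, but the difference between the models did not pass (adjusted p = 0.456). Gzmc was called higher in both models (B6 values 55.5, 1504 and 168 in the graft, against 0.418, 0 and 0.534 in spleen). Ccr7, Cxcr6, Il1rl1 and Havcr2 passed in F1 and not in B6 (adjusted p in B6 = 0.873, 0.662, 0.761 and 0.526). For each of the 4 the interaction missed the threshold (adjusted p = 0.656, 1, 1 and 1), so none is shown to differ. Genotype of graft and recipient and day of sorting differ together between the models.

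The changes were set beside the other NK cells of the same grafts, which were CD49b+. Between CD49a+ and CD49b+ graft cells 1 gene passed by limma, 0.00623 percent of those tested, and 737 had an unadjusted p under 0.05. This gene, Ccdc37, had 53.5, 63.3 and 52.6 in CD49a+ cells, against 0, 0 and 0.797 in CD49b+ cells of the graft and 0.331, 0 and 0.744 in spleen. Neither of the sort marker genes Itga1 and Itga2 was called between these sorts. S1pr5 had 2.17, 8.59 and 8.48 in CD49a+ and 4.48, 0 and 8.80 in CD49b+ graft cells (log2 difference 0.81 ± 0.95). Tigit had 612, 250.2 and 524 in CD49a+ and 562, 547 and 658 in CD49b+ graft cells (log2 difference -0.44 ± 0.48). Gzmc had 231, 35.7 and 33.8 in CD49a+ and 43.8, 6.95 and 25.5 in CD49b+ graft cells (log2 difference 1.66 ± 1.04), and Cxcr6 had 108, 25.1 and 22.7 against 19.6, 18.5 and 20.8 (log2 difference 0.98 ± 0.97). None of these 4 differences passed (adjusted p = 1, 1, 1 and 1), and with standard errors this wide the cells are not shown to be alike. The contrasts of both graft populations with spleen share the spleen libraries.

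Against CD49a+ cells of the recipient's own skin, 3 genes were higher and 1 lower in graft CD49a+ cells (0.0187 and 0.00623 percent), with 1304 at an unadjusted p under 0.05. Cma1 had 54.2, 21.4 and 23 in graft CD49a+ cells, against 0, 0 and 0.949 in recipient skin, a log2 change of 4.63 ± 0.64 (adjusted p = 0.000685). Ccdc37 and Mcm5, a replication helicase subunit, were the other rises, and Mcm5 had 84.5, 98.3 and 64.3 in the graft, against 1.81, 26.7 and 6.44 in recipient skin (adjusted p = 0.0215). Pop1, a subunit of RNase P, was lower, with 1.36, 1.06 and 0 in the graft and 81, 13.1 and 23.7 in recipient skin (adjusted p = 0.0164). Itgae had 22.6, 5.92 and 11 in the graft, against 16.1, 57.4 and 117 in recipient skin, a log2 difference of -1.97 ± 0.98 that did not pass (adjusted p = 0.617). Cma1 was thus between the levels of recipient skin and spleen, with every graft library above every recipient skin library and below every spleen library.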

How the data were processed

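The deposited table holds a normalized signal per gene and library that the authors made with Salmon and DESeq2 on GRCm38/mm10, per the submitters' processing notes. Their versions, the annotation and any filter were not given in the sources used here. Libraries were made from total RNA of sorted cells and are labelled smartRNA-Seq. The depth in reads is unknown: within a tolerance of 0.1, only 19.9 to 23.3 percent of each library's low values were multiples of 1 step, so reads were not recovered and no count test was run. Of 30616 entries 30587 were used, as 1 had no name, 27 had dates as symbols and 1 held a letter for a number. A remark was removed from 1 symbol, older symbols were used for 3 list members (Emr1, Irg1 and Hmha1), 2 members were not found, and 2 unnamed numeric columns were not used.

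Values were tested as log2(value + 1) with limma 3.58.1 in R 4.3.3, with 1 mean per group over all 30 libraries in 10 groups, the trend and robust options of eBayes, and Benjamini-Hochberg adjustment over 16045 genes at a threshold of 0.05. A fold is the fitted log2 change taken back to the linear scale, which understates changes of scarce genes, and its error is the standard error on the log2 scale. No fold is given where all spleen libraries are at 0. The 20 function lists and 12 marker lists hold 540 genes of the table, 508 of which passed the filter, and they are described by counts and medians beside all genes. Some list members are not reported here. Named genes were the 10 largest rises and falls, up to 4 members per list with the smallest p, the most abundant marker of each list and a set chosen by name. Genes and lists were chosen with earlier results of these data known, and other members were added after their values were seen. Locations come from GENCODE M21 and promoters from RefSeq on GRCm38.p6. Whether libraries with the same number pair was checked by correlating their deviations from the group means (r = 0.008, -0.002 and 0.008), and they were treated as unpaired. Tables were handled in Python 3.11.15 (pandas 2.3.3, numpy 2.4.6), and matplotlib 3.10.9 drew the figures. The code for the tests was tested on simulated data. Alternatives changed the pseudocount, filter, scaling, weights, libraries sharing the spread, block, blood in place of spleen, and single libraries.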

Additional observations from a re-analysis of the deposited data

Results flagged for a closer look

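Iglc2, an immunoglobulin lambda constant gene, changed in opposite directions in the 2 models, and the interaction was past the threshold (log2 difference 7.35, adjusted p = 0.00913). It had 7.03, 5.21 and 10.5 in F1 graft CD49a+ libraries and 0 in all 3 F1 spleen libraries, whereas it had 0, 0 and 1.63 in B6 graft CD49a+ libraries, against 8.38, 61.4 and 33 in B6 spleen libraries. The F1 graft values lie near the filter of 10. The interaction of Iglc2 was not called on the leukocyte scale (log2 difference 6.79, adjusted p = 0.617), and the gene called there was H2-Q10, with a difference of -6.89 (adjusted p = 0.0103). With a filter of 50 Iglc2 was not tested. In B6 spleen, B cell markers such as Cd79a were present as well, with 16, 104 and 44, against 7.30, 1.75 and 2.11 in B6 graft CD49a+ libraries, and their part in the difference was not tested.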

How the results depend on the processing

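The counts of 2967 higher and 670 lower genes moved by less than 1.5 times with the 15 F1 libraries alone (3237 and 858), with blood in place of spleen, with no filter, with the same total in each library, and with the replicate block. With the 6 libraries alone 1081 genes were lower. A filter of 50, which tested fewer genes, gave 1133 higher among 1623 calls. On the leukocyte scale 6589 were higher and 26 lower of 6615 calls. Library weights gave 5733 calls with 1774 lower, a pseudocount of 10 gave 1940 higher, and quantile normalization gave 1227 higher among 1954 calls; the cause was not tested. Leaving out single libraries gave 1811 to 3932 calls, 1582 to 3104 higher and 229 to 828 lower, lowest without graft library 3. The count of genes that differ between the models was 1, and was 0 with a filter of 50, 27 with library weights, 4 with no filter, 6 with a pseudocount of 10, 3 with quantile normalization, 4 with the same total and 1 to 3 without single libraries. On the leukocyte scale it was also 1, but of another gene in the lower direction, and Iglc2 was not called there (adjusted p = 0.617).

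Libraries with the same number did not deviate together. With the replicate block 3874 genes were called, 3131 higher and 743 lower, all 119 genes called and named in the report were called again, and 2 genes differed between the models. A test on recovered reads was not run.

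Of those 119 calls, 37 were lost with quantile normalization, 30 on the leukocyte scale, 22 against blood, 19 with a pseudocount of 10, 9 with no filter, 8 with the 6 libraries alone, 7 with the same total, 4 with the 15 F1 libraries, 3 with library weights and 5 of 98 tested with a filter of 50. Leaving out graft library 1, 2 or 3 lost 19, 28 and 31, and leaving out spleen library 1, 2 or 3 lost 31, 30 and 31. Of the 33 named genes that were not called, 13 were called with library weights, 8 on the leukocyte scale, and 6 each with the 15 F1 libraries, the 6 libraries and the replicate block. Of the 119 genes, 5 changed sign and none of these was called with the other sign: on the leukocyte scale Fyn was at 0.08, Hmgb2 at 0.04, Il12rb1 at 0.12 and Stxbp2 at 0.10, and against blood Plk1 was at 0.00. Of the 33, the log2 change on the leukocyte scale turned positive for Ccl4 (1.49), Cd226 (1.07), Cd27 (0.46), Eomes (0.00), Fasl (0.53), Fcer1g (0.09), Gzma (0.06), Gzmb (1.63), Ifng (0.02), Il2rb (1.08), Itgam (0.35), Mcm5 (1.31), Mki67 (1.62), Pop1 (0.61), Slc2a1 (0.13) and Zeb2 (1.83). With quantile normalization it was negative for Cd79a (-1.20), Itgae (-0.24) and Krt5 (-0.28), against blood it was -0.02 for Cd69, 0.32 for Mcm5 and 1.95 for Mki67, with library weights -0.16 for Cd79a, and with a pseudocount of 10 0.01 for Zeb2. Without single libraries the change crossed 0 for Ccl3 (-1.02 to 1.24), Ccl4 (-1.46 to 0.34), Cd79a (-0.29 to 1.01), Gzmb (-0.90 to 0.47), Krt5 (-0.36 to 1.24), Mki67 (-0.91 to 0.40) and Zeb2 (-1.29 to 0.68).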

Other observations

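Besides Iglc2, 3 genes were called in opposite directions in the 2 models, while their interactions did not pass: S100a8 (adjusted p = 0.1005), S100a9 (adjusted p = 0.0581) and Gm12807 (adjusted p = 0.274). S100a9 had 0, 0.782 and 0 in B6 graft CD49a+ libraries, against 119, 2.23 and 155 in B6 spleen libraries, so that the neutrophil gene was high in F1 graft library 2 and in B6 spleen libraries 1 and 3.

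Of the 576 chemosensory receptor genes tested, 200 were higher in B6 graft CD49a+ cells than in B6 spleen, 0 were lower and the rest were not called. Of all genes, 12.5 percent were higher and 3.77 percent lower there. The median log2 change of the 576 was 2.38, beside 0.44 for all genes. The filter ran over all 30 libraries, B6 skin included, and favours genes high in some skin library. A rise in B6 was therefore partly set in advance. Fgd4, a regulator of the cytoskeleton, had 9208, 14740.4 and 16928.5 in the F1 graft libraries, against 565, 830.0 and 697 in spleen. Zfp488 had 8083, 14467.5 and 24581 in the graft, against 464, 968 and 719 in spleen. These rank among the 50 most abundant higher genes, and both genes were named after their values were seen.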
